A study of Homo sapiens with 4 samples.

Results

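The SWI/SNF, Polycomb and histone methylation machinery was read in the ES-2 line of ovarian clear cell carcinoma, which carries the endogenous YM fusion of YAP1 and MAML2. The 47 genes were taken by name from the count and RPKM tables, and all 47 were found among the 19626 genes listed. They comprise 19 SWI/SNF subunits, 16 Polycomb genes and 12 genes for enzymes that add or remove histone methylation. Cells were transduced with pLKO.1 lentiviruses that carried either a nontargeting shRNA (shCtl, n = 2 biological replicates) or shM2-3, an shRNA against a stretch common to MAML2 and the fusion (n = 2), and RNA was taken 96 hours after the first infection according to the sample labels (the study's methods give a shorter time). Both groups therefore carry a lentiviral vector and are the same line. Because the target is common to both, loss of the fusion and loss of MAML2 cannot be told apart. A single shRNA stands for the depletion, so an off-target effect of shM2-3 cannot be told apart from it either.

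SWI/SNF complexes use ATP to slide or evict nucleosomes. They come in canonical BAF, PBAF and non-canonical BAF forms, which share many core subunits and differ in others. Polycomb repressive complex 2 (PRC2) methylates lysine 27 of histone H3 (H3K27), and PRC1 binds that mark through CBX proteins and ubiquitinates histone H2A. Other enzymes write or erase methylation at H3K4, H3K36 and H3K79, marks of promoters and transcribed gene bodies. Genes of the canonical BAF complex, ARID1A above all, are often mutated in ovarian clear cell carcinoma.

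The estimated counts summed to between 20051080 and 23978660 per library. The targeted gene, MAML2, dropped from 1436 and 1402 counts in the controls to 634 and 553 after depletion. Of the genes read as marks of clear cell or epithelial identity, KRT7, KRT8 and KRT18 were expressed in every library, whereas NAPSA, PAX8, EPCAM, KRT19 and CDH1 stayed at an RPKM of 0.369 or less in every library, so the clear cell marker NAPSA was near 0. KRT7 and KRT8 were called lower in shM2-3 (log2 fold change -1.26 and -1.22); the part of this in the results was not tested. RPKM is a read count scaled by transcript length and by library size. All 5 fibroblast markers stayed at 0.413 or less, PTPRC and CD3E of the leukocyte list at 0.0256 or less, and CD68, a lysosomal gene that is not restricted to leukocytes, was at 57.1 in shCtl and 38.4 in shM2-3. In these bulk libraries, fewer cells of a kind and less RNA per cell cannot be told apart.

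Depletion was followed by many small changes across this machinery, most of them upward. Genes were compared with edgeR's quasi-likelihood test over the 12157 genes whose RPKM exceeded 1 in 1 library or more, a level that all 47 genes reached. A gene is said to have risen or fallen when its Benjamini-Hochberg adjusted p over all genes tested was 0.05 or less, and to have been called when its fold change was also 2 or more. By the first rule 34 of the 47 rose, or 72.3%, against a background of 36.3% of all genes tested, and 9 fell, or 19.1%, against 36.4%. Few of these changes were large. JARID2 and CBX8 were called higher, which is 4.26% of the genes against 9.24% of all genes tested. None of the 47 was called lower, against 8.93% of all genes tested. The lowest log2 fold change of the 47 was -0.66, so the fold limit alone kept any from being called lower, whatever the p. At a fold change of 1.5 or more, 13 were higher (27.7%, background 18.9%) and 2 were lower (background also 18.9%).

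The median log2 fold change of the 47 was 0.36, whereas that of all genes tested was -0.0037. Across the 12 settings tried (the reported one included) the median of the 47 lay between 0.26 and 0.36 and that of all genes between -0.07 and 0.02. In SWI/SNF 15 of 19 rose and 3 fell (median 0.25). Of the Polycomb genes 9 of 16 rose and 5 fell (median 0.23). Of the histone methylation enzymes 10 of 12 rose and NSD2 alone fell (median 0.49).

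**Figure D1:**
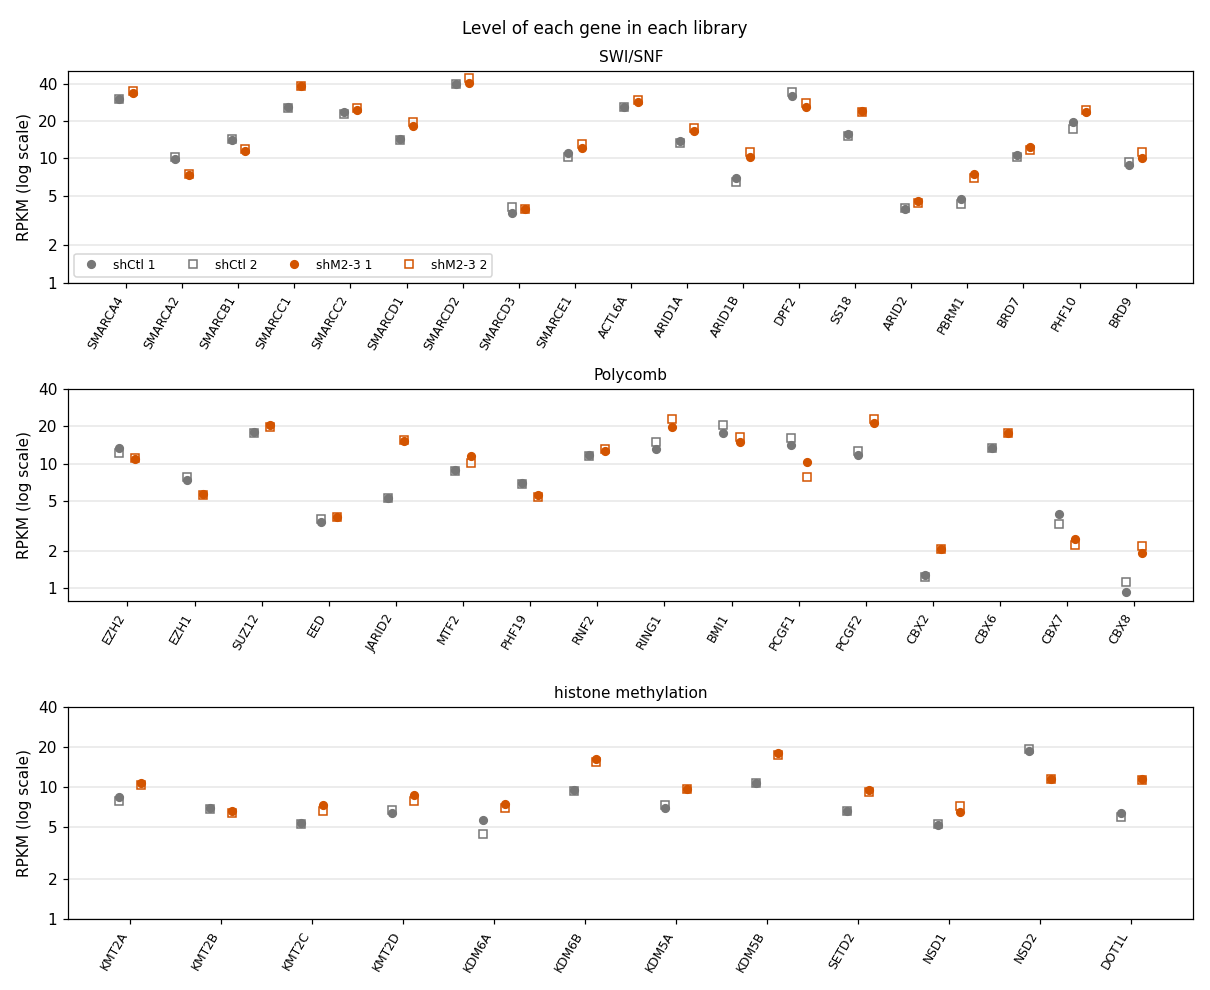
RPKM of each gene (log scale) in the 2 shCtl libraries (grey) and the 2 shM2-3 libraries (orange), with circles for replicate 1 and squares for replicate 2. JARID2, PCGF2, DOT1L and KDM6B sit clearly higher in both shM2-3 libraries, and NSD2 sits lower in both. SMARCD3 is the gene whose groups overlap. Separated groups were common in the background too, as the groups overlapped in only 1703 of all 12157 genes tested.

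Long genes rose more often than short ones. Genes tested were split into 4 equal groups by the length implied by count over RPKM. Among all genes tested, 20.5% rose in the shortest group, 34.5% in the second, 42.2% in the third and 48.0% in the longest. The 47 genes lean to the long end, with 21 of them in the longest group and 5 in the shortest. Of those 21, 18 rose, with a median log2 fold change of 0.46 against 0.14 for all genes of that group. In the shortest group 3 of 5 rose (median 0.23, all genes -0.23), in the second 5 of 8 (0.19, all genes -0.02) and in the third 8 of 13 (0.25, all genes 0.08). The part of length in the rise was not tested.

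**Figure D2:**
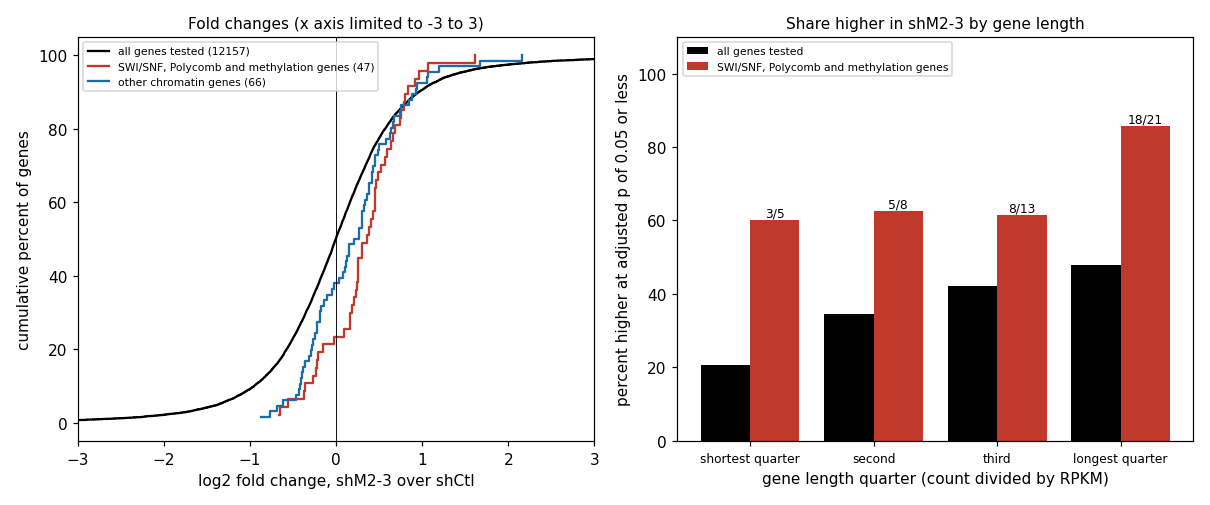
Left, cumulative percent of genes against log2 fold change for all genes tested, the 47 genes and 66 other chromatin genes. The curve of the 47 lies to the right of that of all genes near 0 and ends earlier on both sides. Right, percent of genes that rose (adjusted p of 0.05 or less) by length group, with the number of the 47 genes printed as risen over present; the black bars climb from 20.5% to 48.0%.

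JARID2, a PRC2 accessory subunit that helps to recruit the complex to chromatin, changed most. Its RPKM was 5.33 and 5.29 in shCtl and 15.4 and 15.6 in shM2-3. Both shM2-3 libraries lay far above both controls, and replicates differed by little. The fold change was 3.06, a log2 fold change of 1.61 (standard error 0.0561, adjusted p = 1.43e-11 by the quasi-likelihood test of edgeR), and it passed the fold limit of 2 in all 12 settings. In hg38 JARID2 spans chr6:15246069-15522042, plus strand (GENCODE annotation), with no annotated gene overlapping its exons. Counts of the antisense gene JARID2-AS1 were 2 in each control library and 3 and 4 after depletion.

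The other PRC2 genes moved less and in both directions. EZH2, the main H3K27 methyltransferase, was at an RPKM of 13.4 and 12.2 in shCtl and 10.9 and 11.1 in shM2-3. Its log2 fold change of -0.15 did not pass (adjusted p = 0.0792, edgeR's quasi-likelihood test). The value was -0.08 without shCtl replicate 1 and -0.22 without shCtl replicate 2. With no library left out, the fall passed with library totals in place of TMM scaling (-0.19, adjusted p = 0.0369, same test). It passed with no filter too (-0.18, adjusted p = 0.0449, same test). It also passed on the log2(RPKM + 0.1) and log2(RPKM + 1) scales (adjusted p = 0.0222 and 0.0217, limma). It did not pass with DESeq2 (-0.15), with another filter or with a replicate block. EZH1, its less active relative, fell by 0.37 from 7.68 ± 0.293 to 5.68 ± 0.0851 RPKM (SD, n = 2 each). SUZ12, a core scaffold, rose from 17.8 to 20.2 RPKM, a log2 fold change of 0.25. A pseudogene copy, SUZ12P1, rose as well (0.73). The study's methods state that ambiguous reads were removed, so reads that match both copies may be missing from these counts. EED, the core subunit that reads H3K27 methylation, had between 204 and 272 counts per library, and its change (log2 0.16, standard error 0.134) did not pass. The alternative accessory subunits MTF2 and PHF19, both Polycomb-like proteins, parted. MTF2 rose by 0.36 on the log2 scale, and PHF19 fell by 0.27. Of the 3 accessory genes, then, 2 rose and PHF19 fell.

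PRC1 genes moved in both directions too. PCGF2 (MEL18) and BMI1 (PCGF4) are alternative subunits that pair with the RING ligases and define the same branch of PRC1. The PCGF2 level was 11.8 and 12.8 RPKM in shCtl and 21.4 and 23.1 in shM2-3, a log2 fold change of 0.92 (standard error 0.0696). BMI1 was at 17.6 and 20.7 RPKM in shCtl and 15.0 and 16.5 in shM2-3, a log2 fold change of -0.21. Their order was thus exchanged, BMI1 being the higher in both shCtl libraries and PCGF2 in both shM2-3 libraries. The fall of BMI1 passed the test (adjusted p = 0.0229, edgeR's quasi-likelihood test) but not without shCtl replicate 2 (-0.09, adjusted p = 0.269) or without shM2-3 replicate 1 (-0.14, adjusted p = 0.192), nor with DESeq2 (-0.21). BMI1 shares exons with the read-through gene COMMD3-BMI1 (317 and 145 counts in shCtl, 319 and 190 in shM2-3), whose part in the result was not tested. Of the PCGF2 exon bases 61.5% are also annotated to other genes. Among them CISD3, on the opposite strand, fell by 0.43, and these libraries do not separate strands.

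PCGF1, which directs a variant PRC1 with BCOR, fell from 14.1 and 16.1 RPKM to 10.3 and 7.91. This is a log2 fold change of -0.66 (standard error 0.146, adjusted p = 0.00113, edgeR's quasi-likelihood test), which lay between -0.86 and -0.49 with each library left out in turn. The shM2-3 replicates of this gene stood apart, with 268 and 186 counts. Of the E3 ligases, RING1 rose from 13.2 and 15.1 RPKM to 19.8 and 22.9 (log2 fold change 0.66, standard error 0.0922). RNF2, the more active ligase, rose by a log2 fold change of 0.21 from 11.6 to 12.9 RPKM, a change that did not pass without shM2-3 replicate 2 (0.18, adjusted p = 0.0820, edgeR's quasi-likelihood test).

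The CBX readers, which anchor canonical PRC1 to H3K27 methylation, moved apart. CBX8 was at 0.933 and 1.13 RPKM in shCtl and 1.94 and 2.19 in shM2-3, with 82 and 101 against 209 and 213 counts. Its log2 fold change of 1.07 (standard error 0.186, adjusted p = 0.000163, edgeR's quasi-likelihood test) was the smaller of the 2 calls. The call was lost without shCtl replicate 1 (0.94), without shM2-3 replicate 2 (0.97) and on the log2(RPKM + 0.1) and log2(RPKM + 1) scales (0.94 and 0.59), although the adjusted p stayed at 0.00328 or less in these settings. CBX2, its neighbour on chromosome 17, was at 1.28 and 1.23 RPKM in shCtl and 2.07 and 2.06 in shM2-3 (log2 fold change 0.78, standard error 0.138). CBX2 (79778148 to 79787983) and CBX8 (79792132 to 79801683) lie next to each other, and both had the lowest control levels of the 47 genes. CBX6 rose from 13.5 to 17.6 RPKM (log2 fold change 0.45). CBX7, the reader linked to the silencing of CDKN2A, fell from 3.96 and 3.31 RPKM to 2.48 and 2.24, a log2 fold change of -0.55 (standard error 0.129). So 3 of the 4 CBX genes rose, and CBX7 fell.

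**Figure D3:**
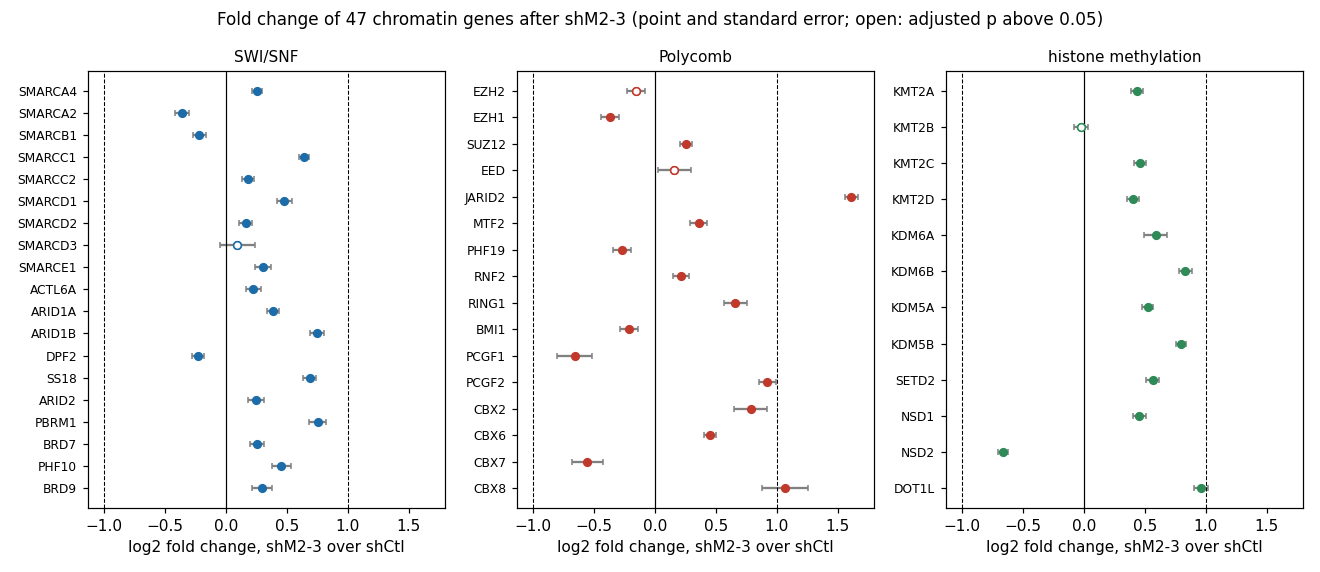
Log2 fold change of shM2-3 over shCtl with its standard error for each gene, in 3 panels by class; open points did not reach an adjusted p of 0.05, and dashed lines mark a fold change of 2. JARID2 (1.61) and CBX8 (1.07) lie past the right line, and no gene lies past the left one.

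In SWI/SNF the rise was broad and shallow. The ATPases SMARCA4 (BRG1) and SMARCA2 (BRM), which are alternative motors of the complex, moved in opposite directions. SMARCA4 rose from 30.0 ± 0.147 to 34.2 ± 0.556 RPKM (SD, n = 2 each), a log2 fold change of 0.25, and SMARCA2 fell from 10.0 ± 0.205 to 7.47 ± 0.0994, a log2 fold change of -0.36. Among the core subunits SMARCC1 (BAF155) rose most. It was at 25.9 and 25.6 RPKM in shCtl and 38.1 and 38.4 in shM2-3, a log2 fold change of 0.64 (standard error 0.0411). Its relative SMARCC2 (BAF170) rose by a log2 fold change of 0.18. SMARCC2 overlaps MYL6 on the opposite strand, which rose by 0.64, and the change of SMARCC2 did not pass on the log2(RPKM + 0.1) scale (adjusted p = 0.0630, limma).

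Of the SMARCD (BAF60) genes, SMARCD1 rose (0.48). SMARCD2, the most abundant of the 47 genes in shCtl at 39.8 RPKM, had a log2 fold change of 0.16 that passed (adjusted p = 0.0151, edgeR's quasi-likelihood test). This change did not pass on the log2(RPKM + 0.1) or log2(RPKM + 1) scale (adjusted p = 0.167 and 0.164, limma). Without shM2-3 replicate 2 it was only 0.08. SMARCD3, the scarcest of the SWI/SNF genes in shCtl at 3.81 RPKM, had a change of 0.10 on the log2 scale (standard error 0.146, adjusted p = 0.571). It shares 28.4% of its exon bases with other genes, among them CHPF2, which rose by 1.31. SMARCB1, the subunit that binds the nucleosome's acidic patch and is lost in rhabdoid tumours, fell by 0.22 from 14.2 to 11.7 RPKM. SMARCE1 (0.30) and ACTL6A (0.23), the remaining core genes, rose.

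Most of the other SWI/SNF subunits also rose. ARID1B, the alternative to ARID1A in canonical BAF, was at 6.97 and 6.46 RPKM in shCtl and 10.3 and 11.2 in shM2-3 (log2 fold change 0.75, standard error 0.0577). ARID1A itself rose from 13.6 to 17.0 RPKM (log2 fold change 0.39). SS18, the subunit fused in synovial sarcoma, went from 15.8 and 15.1 RPKM to 23.9 and 23.6 (log2 fold change 0.69, standard error 0.0535). DPF2, a PHD finger subunit of canonical BAF, fell by 0.23 from 33.0 to 26.9 RPKM. All 4 PBAF genes rose. PBRM1, whose bromodomains target the complex, led them with 4.72 and 4.27 RPKM in shCtl and 7.52 and 6.96 in shM2-3 (log2 fold change 0.75, standard error 0.0693). PHF10 (0.46), BRD7 (0.25) and ARID2 (0.25) followed, and BRD9 of non-canonical BAF had a log2 fold change of 0.30. Of the BRD7 exon bases 41.9% are also annotated to other genes. Among those, ADCY7 on the opposite strand fell by 0.22, and its part was not tested. The change of ARID2 did not pass on the log2(RPKM + 0.1) scale (adjusted p = 0.0925, limma), nor did that of BRD9 without shM2-3 replicate 2 (0.20, adjusted p = 0.0957, edgeR's quasi-likelihood test).

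Among the methylation enzymes, DOT1L, the sole H3K79 methyltransferase of this list, rose most. Its level was 6.37 and 5.90 RPKM in shCtl and 11.5 and 11.2 in shM2-3. The log2 fold change of 0.96 (standard error 0.0572, adjusted p = 4.16e-09, edgeR's quasi-likelihood test) fell just short of the fold limit and was past it, at 1.02, without shCtl replicate 1. All 4 demethylases among the 47 rose, while those in the wider list went both ways. There PHF2 (0.85), KDM4A (0.67), KDM2A (0.63), KDM3B (0.41), KDM5C (0.30) and JMJD1C (0.30) rose. KDM7A (-0.77), KDM4C (-0.30), KDM2B (-0.28), KDM1A (-0.19) and PHF8 (-0.19) fell, and KDM4B (-0.11) and KDM3A (0.08) did not pass. KDM6B (JMJD3), an inducible H3K27 demethylase, was at 9.40 and 9.27 RPKM in shCtl and 16.3 and 15.4 in shM2-3 (0.83, standard error 0.0499). KDM6A (UTX) was at 5.58 and 4.39 RPKM in shCtl and 7.35 and 6.96 in shM2-3 (0.59, standard error 0.0959). The shCtl replicates of KDM6A lay apart, and its log2 fold change was 0.78 without shCtl replicate 1 and 0.42 without shCtl replicate 2.

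The H3K4 demethylase KDM5B was at 10.7 RPKM in each shCtl library and at 17.9 and 17.6 in shM2-3 (0.79, standard error 0.0424), and KDM5A rose from 7.04 to 9.67 RPKM (0.52). The H3K4 methyltransferases KMT2A (0.43), KMT2C (0.46) and KMT2D (0.40) rose by similar amounts. KMT2B, the fourth, did not pass. It was at 6.92 and 6.79 RPKM in shCtl and 6.62 and 6.29 in shM2-3, a log2 fold change of -0.02 (standard error 0.0579).

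Of the 12 histone methylation genes, NSD2 was the 1 that fell. It dimethylates H3K36, and it was at 18.7 and 19.4 RPKM in shCtl and 11.5 in each shM2-3 library. Its 7486 and 7898 counts in shCtl were the most of any of the 47 genes. The log2 fold change was -0.66 (standard error 0.0405, adjusted p = 5.37e-09, edgeR's quasi-likelihood test) and lay between -0.72 and -0.64 in all 12 settings. The other two H3K36 methyltransferases among the 47 rose, whereas NSD3, from the wider list, had a log2 fold change of 0.04 that did not pass (adjusted p = 0.465, edgeR's quasi-likelihood test). NSD1, which places the same mark, rose from 5.19 to 6.81 RPKM (0.46), and SETD2, which trimethylates H3K36 along transcribed genes, rose from 6.58 to 9.30 RPKM (0.57). NSD2 lies at chr4:1871393-1982207 and NSD1 at chr5:177131830-177300213, both on the plus strand.

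Since many of these genes are alternatives for the same place in a complex, the RPKM ratio of 20 related pairs was read in each library. Such a ratio does not depend on depth or scaling. With 2 libraries against 2, an exact permutation test cannot go below p = 0.333, so the ratios are given without a test. The BMI1 to PCGF2 ratio was 1.49 and 1.61 in shCtl and 0.702 and 0.715 in shM2-3, the largest shift of the 20 (log2 difference -1.13). The NSD1 to NSD2 ratio went from 0.276 and 0.269 to 0.564 and 0.619 (1.12). The CBX7 to CBX6 ratio went from 0.293 and 0.247 to 0.141 and 0.127. In each of these pairs 1 gene rose and the other fell.

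Several smaller shifts were also larger than the spread between replicates. The SMARCA4 to SMARCA2 ratio was 3.05 and 2.94 in shCtl and 4.57 and 4.59 in shM2-3, and the MTF2 to PHF19 ratio went from 1.26 and 1.28 to 2.05 and 1.87. The DPF2 to PHF10 ratio fell from 1.63 and 1.98 to 1.11 and 1.12. For SMARCC1 to SMARCC2 it was 1.10 and 1.13 against 1.54 and 1.51. The ARID1A to ARID1B ratio fell from 1.99 and 2.07 to 1.61 and 1.55, although both genes rose. For 3 pairs the groups overlapped: SMARCD2 to SMARCD3, KMT2C to KMT2D, and BRD7 to BRD9. The EZH2 to EZH1 ratio was 1.79 and 1.55 in shCtl and 1.91 and 1.97 in shM2-3, a gap between groups smaller than the gap between the shCtl replicates. The same held for CBX2 to CBX8 (1.37 and 1.09 against 1.06 and 0.940) and for KDM6A to KDM6B (0.593 and 0.474 against 0.451 in each shM2-3 library). For BMI1 to PCGF1 (1.25 and 1.28 against 1.46 and 2.09) the gap between groups was smaller than that between the shM2-3 replicates.

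**Figure D4:**
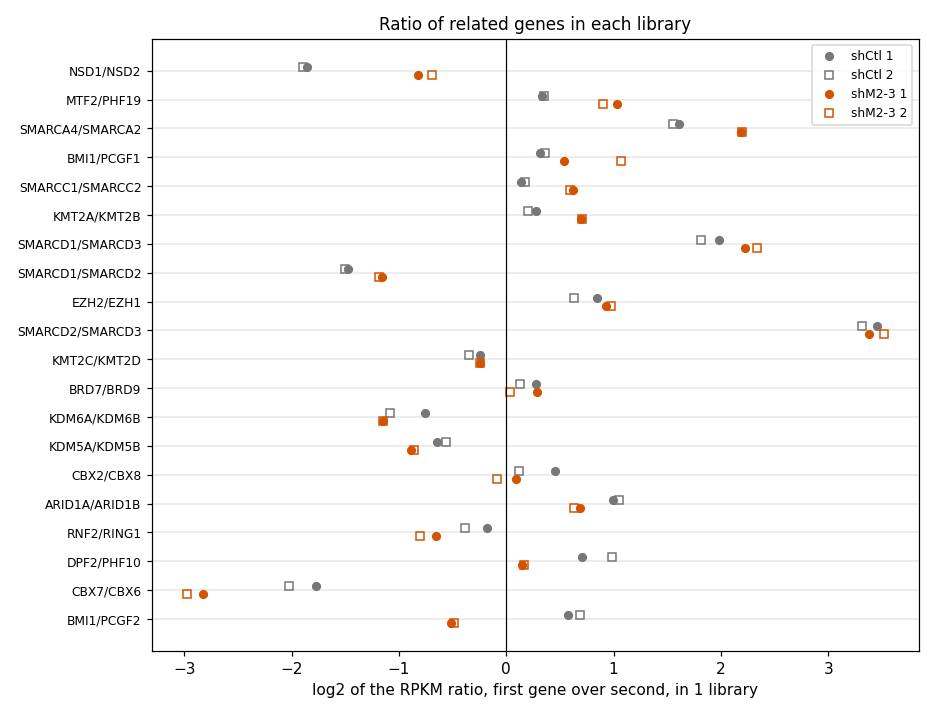
Log2 of the RPKM ratio of 20 related pairs (first gene over second) in each library, shCtl in grey and shM2-3 in orange, ordered by the difference between groups. BMI1/PCGF2 crosses 0, the line of equal levels, from 1.49 and 1.61 in shCtl to 0.702 and 0.715 in shM2-3 (ratios before the log).

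Promoter sequence was read for 40 of the 47 genes from RefSeq (GRCh38.p14), as the 250 bases before the most upstream start. No window was available for CBX8, CBX2, DOT1L, SMARCC1, SMARCC2, ARID2 and ACTL6A, so these genes were not searched. TEAD factors, through which YAP1 reaches DNA, recognise CATTCC, and this motif (either strand) was in 2 of the 40 windows (5.0%), those of PCGF2 and BMI1, against 9.66% of the 9571 windows of genes tested and 3264 of all 27305. The E2F motifs TTTCCCGC or TTTGGCGC were in 4 windows (10.0%, genes tested 3.25%, all 1.96%), those of NSD2, PHF19, SUZ12 and BRD7. The E-box CACGTG bound by MYC was in 6 windows (15.0%, genes tested 8.88%, all 6.46%), those of BMI1, CBX6, KDM6A, KMT2D, NSD1 and PBRM1. These are letter matches and not binding sites, and genes on each E2F and E-box list both rose and fell. The windows also differed in base content. The median share of G and C bases was 69.4% in the windows of the 40, 64.8% for genes tested and 57.6% for all. The part of base content in the motif shares was not tested.

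The windows of the gene that rose most, of the gene that fell with most reads, and of PCGF2 are shown, 5′ to 3′ on the strand of the gene, with motif matches in capitals. That of JARID2 (chr6:15245819-15246068, plus strand) holds none of the motifs. That of NSD2 (chr4:1871143-1871392, plus strand) holds TTTCCCGC starting 77 bases before the start. That of PCGF2 (chr17:38746629-38746878, minus strand) holds the TEAD motif in its reverse form 155 and 8 bases before the start, and it lies inside the GENCODE span of the gene, which begins further upstream.
JARID2: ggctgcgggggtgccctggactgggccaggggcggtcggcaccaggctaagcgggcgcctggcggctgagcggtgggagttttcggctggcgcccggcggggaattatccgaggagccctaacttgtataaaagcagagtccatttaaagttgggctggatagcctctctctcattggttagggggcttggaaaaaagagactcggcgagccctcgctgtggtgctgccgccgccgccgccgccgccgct
NSD2: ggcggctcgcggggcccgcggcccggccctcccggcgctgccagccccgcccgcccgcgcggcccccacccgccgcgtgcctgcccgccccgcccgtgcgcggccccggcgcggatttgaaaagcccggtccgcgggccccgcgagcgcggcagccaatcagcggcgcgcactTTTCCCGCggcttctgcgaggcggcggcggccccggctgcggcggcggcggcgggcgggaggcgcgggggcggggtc
PCGF2: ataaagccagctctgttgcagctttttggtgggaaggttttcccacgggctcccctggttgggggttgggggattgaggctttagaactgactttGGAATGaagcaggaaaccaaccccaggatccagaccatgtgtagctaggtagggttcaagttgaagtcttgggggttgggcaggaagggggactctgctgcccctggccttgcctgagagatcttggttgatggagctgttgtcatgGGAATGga

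Beyond the 47 genes, 67 further SWI/SNF, Polycomb and histone methylation genes were listed, some of them for marks such as H3K9 that the 47 do not cover. Of the 67, 66 were tested. Of these, 35 rose (53.0%) and 20 fell (30.3%), with a median log2 fold change of 0.24. The background for rising and falling is the 36.3% and 36.4% given above. The shares in this wider list lay nearer to the background than those of the 47. Among them, 5 were called higher, or 7.58% against 9.24% of all genes tested, and none lower, against 8.93%. These were PHC2 and L3MBTL2 of PRC1-type complexes, BCOR and BCORL1 of the PCGF1 complex, and the H3K4 methyltransferase SETD1B. PHC2, a polyhomeotic subunit that lets PRC1 polymerise, was at 23.0 and 24.9 RPKM in shCtl and 103 and 101 in shM2-3, a log2 fold change of 2.15 (standard error 0.0460). BCOR was at 3.47 and 3.64 RPKM in shCtl and 7.13 and 6.99 in shM2-3 (1.05), and BCORL1 at 3.25 and 3.47 against 7.46 and 7.23 (1.20), so both rose while PCGF1, their partner, fell. L3MBTL2 had a log2 fold change of 1.67 and SETD1B of 1.06.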

How the data were processed

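RNA-seq was compared between 2 shCtl and 2 shM2-3 libraries of ES-2 cells. Libraries were paired-end (150 bases) and not strand-specific. The submitters' processing notes name HISAT2 2.0.4, Partek 7.18 and hg38. The estimated counts per gene were made by the authors and deposited without normalization, and they were rounded to whole numbers here. RPKM was also computed and deposited by the authors, and it is used for levels, the filter on low values and ratios. Group labels came from the sample titles, and 0 columns were left unused. Genes whose RPKM exceeded 1 anywhere were tested in edgeR 4.0.16 (TMM, quasi-likelihood test, R 4.3.3), and the standard error is the log2 fold change over the root of F. The procedure was tested on simulated data. Alternatives were library totals, DESeq2 1.42.0, other filters, limma 3.58.1 on the log2 of RPKM plus 0.1 or 1, a block for replicate number, and fits that omit a library. The biological coefficient of variation was 0.0485. P-values measure the spread between these cultures of 1 line. Library values are given for genes with a log2 fold change of 0.6 or more in either direction, and for related pairs. The members and lists were chosen with earlier results of these data known. A marker gene is not reported here.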

Additional observations from a re-analysis of the deposited data

How the results depend on the processing

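Of 517 log2 fold changes of the 47 genes under 11 alternatives, 499 kept their direction and side of the adjusted p limit, 12 no longer passed, 5 newly passed and 1 turned. The gene that turned was KMT2B, which lay between -0.0520 and 0.0103 with each library left out, the latter without shM2-3 replicate 2. Genes called higher numbered 2 in the reported fit and 1 on the log2(RPKM + 0.1) and log2(RPKM + 1) scales of limma, and between 1 and 2 with each library left out. Without shCtl replicate 1 DOT1L was called in place of CBX8. Over all genes tested, 596 were called higher on the log2(RPKM + 1) scale and 724 lower, against 1123 and 1086. With a fold limit of 1.5 the 47 genes had 13 higher and 2 lower, and all genes had 2296 higher and 2302 lower. With a replicate block the 47 genes had 2 called higher and 0 lower, and 34 and 9 at the adjusted p limit; all genes had 1123 and 1079. Deviations of libraries with the same replicate number correlated at 0.0101 over 11697 genes, and the block changed no call among the 47. The labels give a replicate number and do not say whether the cultures were paired. The cause of each change was not tested. The standard error was 0.146 for SMARCD3 and 0.134 for EED, so small changes of these genes could be missed with 2 libraries a group. The change of EED (0.16) exceeded its standard error and still did not pass (adjusted p = 0.297, edgeR's quasi-likelihood test).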

Other observations

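These genes were named after their values were seen. The polyhomeotic genes, which lend PRC1 its SAM domain, split as the PCGF genes did. PHC2 rose 4.45-fold, whereas PHC1 was at 9.37 and 9.66 RPKM in shCtl and 6.91 and 6.80 in shM2-3 (log2 fold change -0.41, adjusted p = 5.89e-05 by the quasi-likelihood test of edgeR). PHC3 was at 6.80 and 6.24 RPKM in shCtl and 3.66 and 3.10 in shM2-3 (-0.88, adjusted p = 1.42e-07, same test). Of the remaining PCGF genes, PCGF3 rose from 3.97 to 6.41 RPKM (0.76) and PCGF5 fell from 7.65 to 5.26 RPKM (-0.47), while PCGF6 had a log2 fold change of -0.15 that did not pass (adjusted p = 0.255, same test). ASH1L, an H3K36 methyltransferase, rose from 5.30 to 9.71 RPKM (0.94), and EHMT1, an H3K9 methyltransferase, rose from 4.41 to 7.99 RPKM (0.92). The H3K9 methyltransferases SUV39H1 (-0.36) and SUV39H2 (-0.38) fell, as did the demethylase KDM7A, from 4.42 to 2.47 RPKM (-0.77, adjusted p = 4.59e-07, same test).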
